A study of Homo sapiens with 24 samples.

Results

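The nuclear genes for the proteins of the mitochondrial ribosome were followed across the 8 groups of this series. They were the protein-coding rows of the count table whose symbol is MRPL or MRPS, a number and at most a closing letter A, B or C. There were 78 of them among 58735 genes, on 21 chromosomes. Poly(A)-selected RNA had been sequenced from 2 human acute myeloid leukaemia cell lines, THP-1 and MOLM-13, which both carry a KMT2A-MLLT3 fusion. Each line had been kept for 72 h in vehicle (PBS with DMSO), in L-ascorbic acid (LAA, vitamin C, 250 µM), in olaparib (an inhibitor of the PARP enzymes of DNA repair, 1 µM) or in LAA plus olaparib, with 3 libraries in each group and 24 in all. The labels do not say whether the libraries of a group came from separate cultures, so p-values measure the spread between these libraries, which may be technical.

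The mitochondrial ribosome translates the few messenger RNAs of the mitochondrial genome, which encode core subunits of the respiratory chain and of ATP synthase. Its ribosomal RNAs are made in the mitochondrion, but all its proteins are encoded in the nucleus, made in the cytosol and imported. A small subunit reads the messenger RNA, and a large subunit forms peptide bonds and holds the exit tunnel. Part of the proteins descend from bacterial ribosomal proteins, and the rest are specific to mitochondria. Leukaemic myeloid cells are known to depend on mitochondrial translation. By this classification 51 members were large subunit proteins, including MRPS30 and MRPS18A, which carry small subunit symbols but sit in the large subunit. Another 26 were small subunit proteins. MRPS36, now known as KGD4, was counted with neither, because it is a component of the 2-oxoglutarate dehydrogenase complex. In the list used, 47 members were counted as bacterial homologs and 30 as mitochondria-specific proteins. MRPL55 was counted with the homologs, though it can also be classed as mitochondria-specific. These placings were not checked by sequence.

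Library totals ran from 18666259 to 25265870 counts, and the members took between 0.421% and 0.537% of them. Myeloid markers were expressed in all groups, with summed group means of 1248 to 1443 CPM, a count scaled to library size. Summed erythroid markers were at or near 0, and T and NK, B, epithelial and fibroblast markers summed to at most 17.8 CPM in any group. The libraries labelled MOLM-13 stood close to THP-1. Vehicle libraries of different lines correlated at r = 0.990 to 0.993 over 9 pairs of libraries, and libraries of the same group at 0.989 to 0.996 over 24 pairs, across genes, which are not independent replicates. EMD, MTAP, ZFP57 and KLHL9 had 0 counts over all 12 THP-1 libraries and 324, 142, 110 and 87 counts over the 3 vehicle libraries labelled MOLM-13. The summed level of 15 genes near-silent in THP-1, chosen after their values were seen, was 31.6 CPM in those vehicle libraries, 5.34 with LAA, 19.2 with olaparib and 4.09 with the combination, and 0.230 to 0.361 in the THP-1 groups. FLT3 and MEIS1, reported high in MOLM-13, served as a line check. They summed to 39.7 CPM in the vehicle libraries labelled MOLM-13, 8.26 with LAA, 26.7 with olaparib and 10.3 with the combination. In the THP-1 groups they summed to 6.76 to 11.3 CPM. These levels therefore moved with treatment among the libraries labelled MOLM-13, and their part in the results for those libraries was not tested. The THP-1 fits hold none of those libraries.

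Promoters were compared because the members are scattered over many chromosomes. RefSeq windows of GRCh38.p14, from 250 bases before to 50 after the start, matched 69 of the 78 members. MRPL2, MRPL10, MRPL13, MRPL15, MRPL21, MRPL23, MRPL35, MRPS28 and MRPS36 were the others. The core bound by ETS family factors such as GABPA, CCGGAAG on either strand, was in 29 of 69 windows (42.0%) and in 14.1% of 15774 other protein-coding windows. The YY1 core ATGGCGGC was in 19 (27.5%) and in 4.39% of the others. Most of its matches in members lay on the gene's own strand in the 50 bases after the start, not upstream. The NRF1 sequence GCATGCGC was in 6 (8.70%) and in 4.24% of the others. The CEBP-ATF composite TGATGNAAT, a sequence bound by ATF4 dimers, was in 1 member (1.45%), MRPL55, and in 0.621% of the others. A divergent gene start lay within 1000 bases of 22 members (31.9%) and of 18.2% of the others. MRPL46 and MRPS11, both among these 22, lie on opposite strands and overlap a common gene. Median GC content was 60.3% in members and 62.7% in the others. These are letter matches, with no test.

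The ETS cores of 7 members that were called with the combination, chosen after their values were seen, are shown first, each with 11 bases on either side and the core in capitals, on the strand of the gene, because this is the commonest of the searched motifs in the family.
MRPS18C, chr4:83455825-83455853, plus strand: gggctcgcggaCCGGAAGcacgcataaac
MRPL30, chr2:99181028-99181056, plus strand: ggtctgctgcgCTTCCGGgaagtggtcat
MRPL40, chr22:19432523-19432551, plus strand: ggggcgcacgcCCGGAAGcggcgagggta
MRPS12, chr19:38930928-38930956, plus strand: acggatagcgcCCGGAAGaggctagaagc
MRPS22, chr3:139343896-139343924, plus strand: tctataagggcCCGGAAGaCTTCCGGccc
MRPL33, chr2:27771700-27771728, plus strand: cgggccgtgccCCGGAAGcagttgttgtt
MRPL54, chr19:3762650-3762678, plus strand: gccactgacgtCTTCCGGaaacgtgcact
Of these members, MRPS18C rose and MRPL30 fell with the combination in both lines. MRPL40, MRPS12 and MRPS22 were called in THP-1 alone, where they rose. MRPL33 and MRPL54 were called in the libraries labelled MOLM-13 alone, where they fell. The core thus lay in windows of genes of both directions, but these genes were picked, so their split is not read as a result. All these sites but that of MRPS22 overlap an annotated exon. MRPL47, MRPL53, MRPS18A, MRPS26 and MRPS31, which rose in THP-1, and MRPL51, which fell there, were also called and hold the core in their windows. In MRPS22 the core occurred on both strands, separated by a single base.

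A YY1 core, whose first letters are ATG, stood just after the start in MRPS30 and MRPS18A, as in most members that hold it.
MRPS30, chr5:44808952-44808981, plus strand: cgcgggcaaagATGGCGGCggccaggtgtt
MRPS18A, chr6:43687761-43687790, minus strand: ggtttttgaagATGGCGGCcctcaaggctc
The runs upstream of MRPS18C and MRPL55 are shown because these are the members with the largest increases among those called in every fit. Capitals mark the NRF1 sequence on the opposite strand in MRPS18C and the composite on the opposite strand in MRPL55.
MRPS18C, chr4:83455857-83455931, plus strand: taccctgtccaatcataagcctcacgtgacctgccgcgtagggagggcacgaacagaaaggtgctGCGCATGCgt
MRPL55, chr1:228109313-228109442, minus strand: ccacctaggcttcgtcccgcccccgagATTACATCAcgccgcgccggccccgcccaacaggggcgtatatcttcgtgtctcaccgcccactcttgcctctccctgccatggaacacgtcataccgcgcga
Of the members called with the combination in THP-1, 22 had a window, and 11 of these (50%) held the ETS core, against 18 of 47 not called (38.3%). A divergent start was near 11 of the 22 (50%) and near 11 of the 47 (23.4%). The YY1 core went the other way, in 4 of the 22 (18.2%) and 15 of the 47 (31.9%). The NRF1 sequence was in 3 of the 22 and 3 of the 47. In the libraries labelled MOLM-13 only 5 called members had a window. The ETS core was in 4 of these 5 and in 25 of 63 not called, and the YY1 core in 0 and 18. These shares were not tested.

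Levels were compared between genes by the deposited FPKM, which is per length. The median member stood at 20.02 FPKM over all libraries, 58 members were at 10 FPKM or more, and 49 of these lay between 10 and 50. Large subunit members had a median of 23.6 FPKM and small subunit members one of 14.4. The highest were MRPL37, a large subunit protein, at 167 FPKM, MRPS34, a small subunit protein, at 124, and MRPL18, a protein of the central protuberance, at 121. The lowest were MRPS24 at 0.115, MRPL38 at 0.788, MRPL46 at 1.20, MRPL53 at 1.52 and MRPS17 at 2.74. All 5 of these overlap a protein-coding gene on the same strand, as do 8 of the other 73 members, and the part of this overlap in their levels was not tested. MRPS24 had 151 counts over the 24 libraries and was not tested in the libraries labelled MOLM-13, where 77 members were tested. Within groups, the SD of log2(CPM + 1) had a median of 0.13 over members, from 0.06 in MRPL3 to 0.35 in MRPL12.

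**Figure D1:**
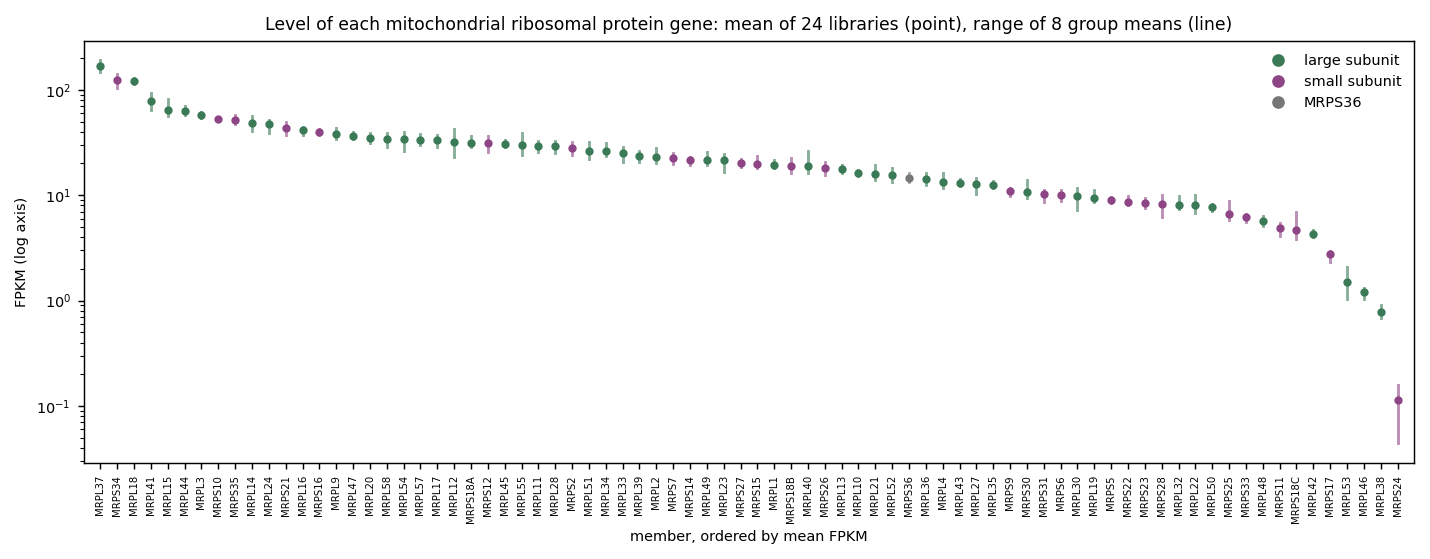
Level of the 78 members in deposited FPKM (log axis), ordered by level, with a point for the mean of 24 libraries and a line for the range of the 8 group means. Most members lie between 10 and 50 FPKM, and MRPS24, at 0.115, lies apart at the low end.

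The combination in THP-1 was the comparison with most changes in the family. In it, 23 members rose and 2 fell among 78 tested, while 13.5% of the 16331 genes tested rose and 13.5% fell (edgeR quasi-likelihood test, Benjamini-Hochberg adjusted p under 0.05 over all genes). Called genes of either direction made up 27.1% of the background and 25 of the 78 members, so the share called was close to the background and the direction was mostly upward. The median log2 difference was 0.13 for the members and -0.01 for all genes, and 53 members were above 0. In 34 members all combination libraries lay above all vehicle libraries and in 3 all lay below, which is 47.4% of members, against 40.1% of all genes. DESeq2 called 27 members and limma on log2(FPKM + 1) called 22. As these are bulk samples, fewer cells of a type and less RNA per cell cannot be told apart.

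Both subunits took part. Of 51 large subunit members 15 rose and 2 fell, with a median of 0.14, and of 26 small subunit members 8 rose and 0 fell, with a median of 0.12. Among 47 members listed as bacterial homologs 13 rose, MRPL55 among them, and 1 fell. Among 30 listed as mitochondria-specific 10 rose and 1 fell. The medians of the lists were 0.14 and 0.07, and the counts depend on the placing of MRPL55.

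In the central protuberance of the large subunit, 2 of 9 members rose, MRPL55 and MRPL40. MRPL55 (ENSG00000162910, hg38 chromosome 1, 228106679 to 228109312, minus strand) stood at 48.4, 45.7 and 45.4 CPM in the vehicle libraries of THP-1 and at 65.9, 72.6 and 81.2 with the combination. All combination libraries lay well above all vehicle libraries, and the log2 difference was 0.64 ± 0.09 (SE, adjusted p = 5.64e-06 by edgeR). MRPL40 (ENSG00000185608, chromosome 22, 19431902 to 19436075, plus strand) went from 35.1, 37.2 and 34.3 CPM to 52.4, 48.5 and 55.7, a log2 difference of 0.55 ± 0.09 (adjusted p = 4.19e-05 by edgeR). The groups again did not overlap. MRPL40 overlaps HIRA and C22orf39 on the opposite strand, with 70.6% and 68.4% of its counts. The library kit does not mark strand, and the strand setting of the counting is not given in the sources used here. Reads in exon stretches that both genes of such a pair share therefore cannot be told apart. How many reads these are was not tested. The other members of the protuberance ranged from -0.18 in MRPL57 to 0.39 in the low-level MRPL38, and none was called.

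Of 3 conserved core proteins of the large subunit, MRPL2 and MRPL4 rose and MRPL3 did not pass the test. MRPL4 went from 48.4, 45.6 and 53.3 CPM to 68.9, 59.7 and 73.0, a log2 difference of 0.44 ± 0.09 (adjusted p = 0.000577 by edgeR). MRPL2 went from 53.9, 55.1 and 53.5 CPM to 71.1, 68.9 and 76.9, a log2 difference of 0.41 ± 0.08 (adjusted p = 0.000259 by edgeR). Neither gene's groups overlapped. MRPL3 differed by 0.14 ± 0.06 (adjusted p = 0.0834 by edgeR). MRPL15, another conserved large subunit protein, went from 66.0, 74.1 and 70.4 CPM to 99.9, 96.7 and 100.5, a difference of 0.49 ± 0.07 (adjusted p = 7.71e-06 by edgeR). Its combination libraries were the most tightly grouped of these genes.

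Of 7 members around the exit tunnel, where the nascent chain meets the inner membrane, 2 rose. These were MRPL22 at 0.29 ± 0.08 and MRPL47 at 0.22 ± 0.08. ACTL6A on the opposite strand has 148% of the counts of MRPL47. The other 5 members around the exit tunnel lay between -0.11 in MRPL44 and 0.14 in MRPL17. In the stalk, which recruits the translation factors, 0 of 3 were called by edgeR. MRPL11 differed by 0.13 ± 0.07, MRPL10 by -0.01 ± 0.09 and MRPL12 by -0.37 ± 0.15 (adjusted p = 0.0572 by edgeR, 0.207 by DESeq2; unadjusted p = 0.0161). MRPL12 was below vehicle in all 3 combination libraries.

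MRPS30, which sits in the large subunit and is also known as a pro-apoptotic protein, stood at 66.5, 59.4 and 57.1 CPM in vehicle and at 89.9, 83.2 and 90.2 with the combination. The log2 difference was 0.51 ± 0.08 (adjusted p = 9.27e-06 by edgeR). The 3 paralogs MRPS18A, MRPS18B and MRPS18C, which descend from 1 bacterial protein and occupy different places in the ribosome, all had positive differences. MRPS18C (ENSG00000163319, chromosome 4, 83455932 to 83469735, plus strand) went from 20.6, 24.9 and 21.0 CPM to 32.0, 31.5 and 37.7, a difference of 0.59 ± 0.11 (adjusted p = 0.000218 by edgeR), and MRPS18A rose by 0.29 ± 0.09 (adjusted p = 0.0136 by edgeR). MRPS18B differed by 0.25 ± 0.11 (adjusted p = 0.0772 by edgeR). MRPS18C overlaps ABRAXAS1 on the opposite strand, with 30.5% of its counts.

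In the small subunit, MRPS25 rose most among the called members after MRPS18C. It stood at 31.5, 37.2 and 29.9 CPM in vehicle and at 45.3, 48.7 and 50.8 with the combination, a difference of 0.54 ± 0.10 (adjusted p = 0.000162 by edgeR). All combination libraries lay above all vehicle libraries, and NR2C2 on the opposite strand has 85.01% of the counts of MRPS25. MRPS12, a protein of the decoding centre, went from 59.2, 55.6 and 64.7 CPM to 72.4, 73.7 and 91.5, a difference of 0.40 ± 0.10 (adjusted p = 0.0028 by edgeR). Of the other small subunit members with a fixed role, MRPS22 at 0.27 ± 0.09 and MRPS2 at 0.22 ± 0.08 rose. COPB2 on the opposite strand has 399% of the counts of MRPS22. MRPS7 at 0.15, MRPS5 at 0.10 and MRPS34 at -0.05 did not pass the test. MRPS36 differed by 0.03 ± 0.11. MRPS24 had a difference of 1.76 ± 0.97 from at most 0.793 CPM in any library of these groups (adjusted p = 0.192 by edgeR).

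**Figure D2:**
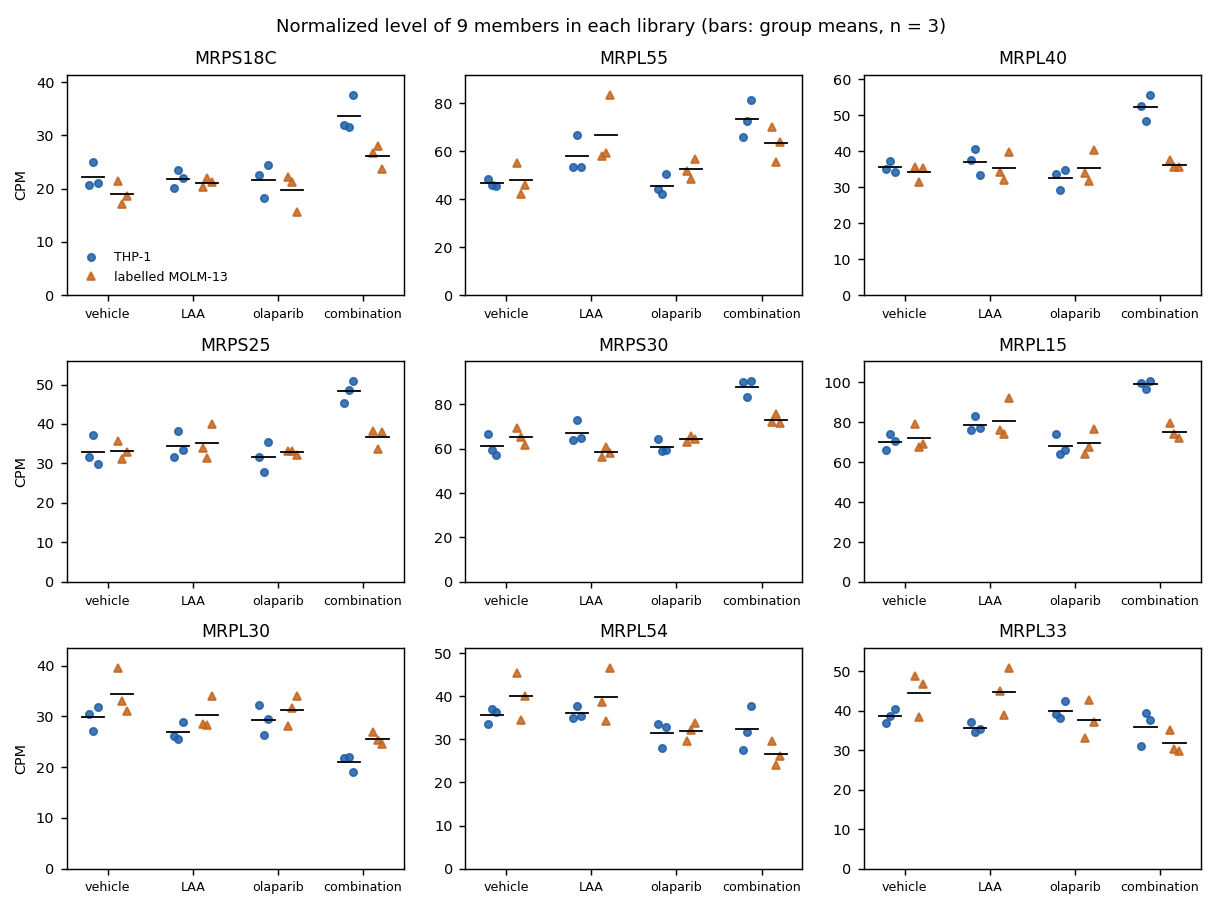
CPM of 9 members in each of the 24 libraries, by treatment, with circles for THP-1, triangles for the libraries labelled MOLM-13 and bars for group means (n = 3). MRPL15 in THP-1 lies at 96.7 to 100.5 CPM with the combination and at 64.3 to 83.3 in the other THP-1 groups, while MRPL30 is lowest with the combination in both lines.

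MRPL30 and MRPL51, both of the large subunit, fell. MRPL30 (ENSG00000185414, chromosome 2, 99181079 to 99197626, plus strand) went from 30.4, 27.1 and 31.8 CPM to 21.8, 22.0 and 19.1, a difference of -0.51 ± 0.10 (adjusted p = 0.000345 by edgeR). MRPL51 went from 42.4, 42.6 and 43.7 CPM to 34.2, 33.6 and 36.2, a difference of -0.32 ± 0.12 (adjusted p = 0.0422 by edgeR). In both genes all combination libraries lay below all vehicle libraries. NCAPD2 overlaps MRPL51 on the opposite strand with 432% of its counts.

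The largest called difference belonged to a gene of low level, MRPL53, which went from 1.47, 1.57 and 1.18 CPM to 2.53, 2.76 and 3.17. It rose by 0.99 ± 0.32 (adjusted p = 0.0207 by edgeR). CCDC142, on the same strand, has 324% of its counts. MRPL53 was not called without vehicle replicate 3 (adjusted p = 0.0799 by edgeR) or without combination replicate 3 (0.0643).

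Of the 25 members called, 12 were called in every fit that left out a library and under every other setting tried. They were MRPL2, MRPL4, MRPL15, MRPL30, MRPL32, MRPL40, MRPL55, MRPS12, MRPS18A, MRPS18C, MRPS25 and MRPS30. The others were lost in at least 1 such fit. Without vehicle replicate 1, adjusted p was 0.0502 for MRPL22, 0.0777 for MRPL21, 0.0689 for MRPL37, 0.183 for MRPL47, 0.11 for MRPS22, 0.237 for MRPS26, 0.103 for MRPS2, 0.081 for MRPL49 and 0.0902 for MRPL51, and the count of members called was 16. Without vehicle replicate 2 it was 0.0587 for MRPS31 and 0.115 for MRPL42, and without combination replicate 3 it was 0.0836 for MRPS11. MRPL21, MRPL47, MRPL49, MRPL51, MRPS2 and MRPS22 were also lost without vehicle replicate 2, MRPL42, MRPL49, MRPL51, MRPS2 and MRPS26 without vehicle replicate 3, MRPL37, MRPL42, MRPL49, MRPL51 and MRPS26 without combination replicate 1, MRPL47, MRPL49 and MRPL51 without combination replicate 2, and MRPL21, MRPL37, MRPL47, MRPL49, MRPS2, MRPS22 and MRPS26 without combination replicate 3. The highest adjusted p among these was 0.285, for MRPS22 without combination replicate 3.

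**Figure D3:**
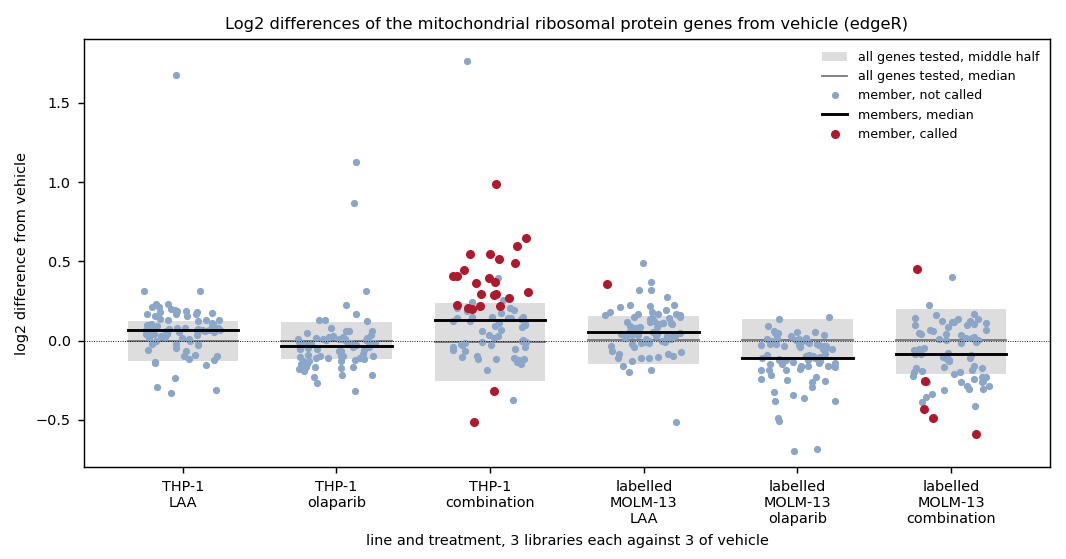
Log2 difference from vehicle (edgeR) of every member tested, for each treatment and line, with called members in red, the members' median as a black bar and the middle 50 percent of all genes tested in grey. With the combination in THP-1 the members' median is 0.13 and 23 called members lie above 0. In the libraries labelled MOLM-13 it is -0.09 and 4 of 5 called members lie below 0.

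In the libraries labelled MOLM-13 the combination gave a different set of calls. Of 77 members tested, 1 rose and 4 fell, while 4.85% of 16160 genes rose and 7.35% fell, 12.2% in either direction. The median log2 difference was -0.09 for the members and 0.00 for all genes. All combination libraries lay above vehicle in 8 members and below in 16, which is 31.2% of members and 35.1% of all genes. With scaling by total counts in place of the trimmed mean of M-values, the members called were 3 higher and 3 lower, and the share of all called genes that were higher moved from 39.8% to 54.0%. DESeq2 called 8 members. By subunit, 0 of 51 large subunit members rose and 3 fell, and of 25 small subunit members 1 rose and 1 fell.

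MRPS18C was the member that rose. It stood at 21.5, 17.1 and 18.6 CPM in vehicle and at 26.6, 27.9 and 23.6 with the combination, a difference of 0.45 ± 0.13 (adjusted p = 0.0253 by edgeR). The groups did not overlap. It was lost without vehicle replicate 2 (adjusted p = 0.106 by edgeR) or 3 (0.0863) and without combination replicate 1 (0.0715) or 2 (0.123). By limma on log2(FPKM + 1) it was also not called. MRPL55 had a difference of 0.40 ± 0.13 that did not pass the test (adjusted p = 0.0525 by edgeR, 0.0274 by DESeq2).

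MRPL54 (ENSG00000183617, chromosome 19, 3762664 to 3768575, plus strand), a mitochondria-specific large subunit protein, fell from 45.5, 34.5 and 40.0 CPM to 29.7, 24.1 and 26.1, a difference of -0.59 ± 0.12 (adjusted p = 0.0034 by edgeR). It was the member called in every fit that left out a library. MRPL33, a small conserved protein of the large subunit, fell from 48.8, 38.3 and 46.7 CPM to 35.1, 30.3 and 29.9, a difference of -0.49 ± 0.12 (adjusted p = 0.0113 by edgeR). BABAM2, on the same strand, has 101% of the counts of MRPL33. MRPL33 was lost without vehicle replicate 1 (adjusted p = 0.0669 by edgeR) or 3 (0.0537) and without combination replicate 2 (0.0644) or 3 (0.0655).

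MRPL30 fell from 39.4, 32.9 and 31.0 CPM to 26.9, 25.4 and 24.5, a difference of -0.43 ± 0.11 (adjusted p = 0.0161 by edgeR). Its groups did not overlap, and it was lost without vehicle replicate 1 (adjusted p = 0.108 by edgeR) and without combination replicate 2 (0.0684) or 3 (0.0784). MRPS27, a small subunit protein with pentatricopeptide repeats, fell from 148, 145 and 139 CPM to 116, 123 and 123, a difference of -0.26 ± 0.08 (adjusted p = 0.0342 by edgeR). It was lost without any 1 of the 6 libraries of these groups, with adjusted p between 0.0606 and 0.139. With scaling by total counts MRPS27 was also lost. The count of members called was 3 without vehicle replicate 1, 2 without vehicle replicate 3 or combination replicate 3, and 1 without combination replicate 2.

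Across both lines 28 members were called with the combination. MRPS18C rose and MRPL30 fell in both, 23 were called in THP-1 alone, 3 in the libraries labelled MOLM-13 alone, and 50 in neither. A call in 1 line does not show a difference between lines, and the difference itself was tested in a fit of all 24 libraries. In that test 0 of 78 members were called by edgeR, with 23 at an unadjusted p under 0.05, 5 called by DESeq2 and 1 by limma on log2(FPKM + 1). The background called by edgeR was 2.13% of 17089 genes. An unadjusted p under 0.05 by edgeR was found in 29.5% of members and in 15.9% of all genes. The median difference, THP-1 minus MOLM-13, was 0.21 for the members and 0.01 for all genes. It was largest relative to its error in MRPL15, at 0.43 ± 0.12 (adjusted p = 0.0527 by edgeR), followed by MRPS30 at 0.36 ± 0.10 (adjusted p = 0.0636) and MRPL40 at 0.47 ± 0.14 (adjusted p = 0.0709).

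**Figure D4:**
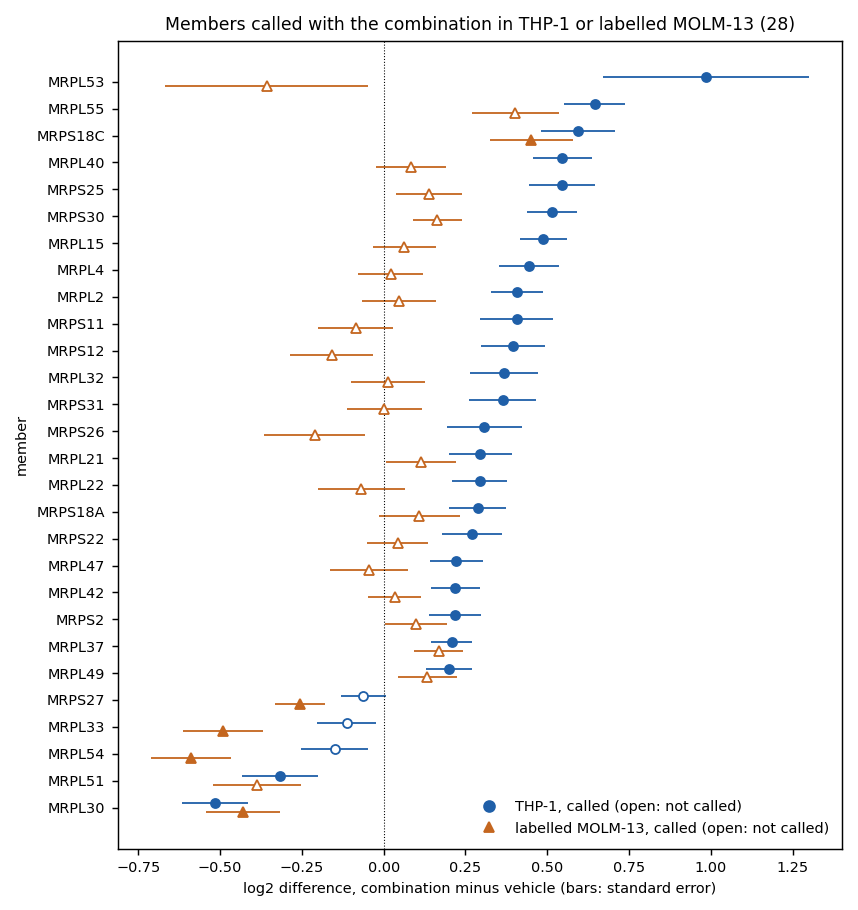
Log2 difference of the combination from vehicle with its standard error for the 28 members called in either line, filled where called and open where not. Most THP-1 points lie right of those for libraries labelled MOLM-13, and MRPS18C and MRPL30 are filled in both.

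No member passed the test with LAA alone in THP-1. By edgeR 0 of 78 members were called, with 11 at an unadjusted p under 0.05 and 0 called by DESeq2 or by limma on log2(FPKM + 1), and the background was 1.49% of genes. An unadjusted p under 0.05 by edgeR was found in 14.1% of members and in 12.3% of all genes. The median was 0.07, with 57 members above 0. All LAA libraries lay above vehicle in 21 members and below in 3, which is 30.8% of members and 19.8% of all genes. The smallest adjusted p was 0.102, for MRPL55, at 0.31 ± 0.09 by edgeR. MRPL55 stood at 53.5, 66.6 and 53.4 CPM with LAA, above every vehicle library.

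LAA in the libraries labelled MOLM-13 gave 1 member called higher, against 1.88% of genes in either direction and 0.792% higher. This was MRPL49, which went from 65.7, 58.6 and 62.5 CPM to 73.4, 74.9 and 90.7, a difference of 0.36 ± 0.09 (adjusted p = 0.0455 by edgeR). It was lost without any vehicle library and without LAA replicate 1 or 3, with adjusted p between 0.06 and 0.219, and FAU on the opposite strand has 646% of its counts. The median was 0.05. All LAA libraries lay above vehicle in 4 members and below in 1, which is 6.49% of members and 18.9% of all genes. Among these libraries the third with LAA had the highest summed member level, 5634 CPM, against 4819 and 4626 in the other two.

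Olaparib alone called 0 members in either line by edgeR. In THP-1 10 members (12.8%) had an unadjusted p under 0.05 by edgeR, against 9.28% of all genes. DESeq2 and limma called 0 members, and edgeR called 0.269% of all genes. The median was -0.03, and all olaparib libraries lay above vehicle in 5 members and below in 6 (14.1% of members and 16.5% of all genes). For the libraries labelled MOLM-13, 13 members (16.9%) had an unadjusted p under 0.05 by edgeR, against 8.38% of all genes. DESeq2 and limma called 0 members, and edgeR called 0.00619% of all genes, a single gene. There the median was -0.11, and olaparib libraries lay above vehicle in 1 member and below in 14 (19.5% of members and 14.3% of all genes). The member nearest the threshold was MRPS28, at -0.68 ± 0.18 (adjusted p = 0.342 by edgeR).

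No difference between the lines in the response to a single compound passed the test. For LAA 0 of 78 members were called by edgeR and 0 by DESeq2 or limma, and the background was 0.14%. An unadjusted p under 0.05 by edgeR was found in 6 members (7.69%) and in 6.41% of all genes. For olaparib 0 were called by edgeR and 0 by DESeq2 or limma, and the background was 0.00585%. Here 3 members (3.85%) and 4.37% of all genes had an unadjusted p under 0.05 by edgeR. A p above the threshold does not show that the lines responded alike.

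Whether the combination went beyond the sum of the single effects was asked with the interaction, the log2 level of the combination minus LAA minus olaparib plus vehicle. In THP-1 7 members were higher and 0 lower, against 4.04% of genes higher and 7.57% in either direction. MRPL40 stood 0.62 ± 0.13 above the sum (adjusted p = 0.00253 by edgeR) and MRPL21, a conserved large subunit protein, 0.54 ± 0.14 (adjusted p = 0.0120). These 2 were called in every fit that left out a library. For MRPL21 the vehicle libraries were at 43.0, 44.2 and 45.7 CPM, LAA at 38.9, 43.9 and 41.6, olaparib at 44.1, 31.8 and 43.7, and the combination at 52.3, 54.8 and 57.1. Only the combination stood above vehicle, and olaparib replicate 2 was the low library.

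MRPS18C was 0.65 ± 0.16 above the sum (adjusted p = 0.0115 by edgeR) and was lost without vehicle replicate 2 (0.057). MRPS25 at 0.53, MRPL2 at 0.41, MRPS30 at 0.39 and MRPL15 at 0.36 had adjusted p of 0.0202 to 0.0262 by edgeR. All 4 were lost when LAA replicate 1, LAA replicate 3 or olaparib replicate 2 was left out. MRPS25 was also lost without vehicle replicate 2 and olaparib replicate 1, MRPL2 without vehicle replicates 2 and 3 and combination replicate 3, MRPS30 without vehicle replicate 1, olaparib replicate 3 and combination replicates 1 and 3, and MRPL15 without vehicle replicates 2 and 3, olaparib replicate 3 and combination replicates 1 and 3, each left out singly. The highest adjusted p among these was 0.103. MRPL2 and MRPL15 were also lost in the fit of all 24 libraries, and MRPS25 and MRPS30 by limma on log2(FPKM + 1). The number of members called was 3 when vehicle replicate 2 or either of LAA replicates 1 and 3 was dropped, and 12 when LAA replicate 2 was dropped. In the libraries labelled MOLM-13 the interaction called 0 members by edgeR, 2 by DESeq2 and 0 by limma, and the background was 2.04%. There 4 members (5.19%) had an unadjusted p under 0.05 by edgeR, against 13.9% of all genes.

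In vehicle, 2 members were lower in THP-1 than in the libraries labelled MOLM-13 and 0 were higher, against 1.99% of genes lower and 4.48% in either direction. MRPS18B stood at 28.8, 31.7 and 31.5 CPM in THP-1 and at 45.4, 41.3 and 41.8 in the other line, a difference of -0.48 ± 0.12 (adjusted p = 0.0125 by edgeR). PPP1R10 on the opposite strand has 220% of its counts. MRPS31 stood at 18.9, 16.9 and 19.2 CPM and at 27.0, 24.4 and 20.1, a difference of -0.37 ± 0.11 (adjusted p = 0.0344 by edgeR). MRPS18B was lost without MOLM-13 vehicle replicate 1 (0.072) or THP-1 vehicle replicate 1 (0.086), and MRPS31 without any vehicle library but MOLM-13 replicate 3, with adjusted p between 0.0646 and 0.276. MRPS31 was also lost without the filter on low counts (0.0638). All THP-1 libraries lay above in 2 members and below in 13, which is 19.2% of members and 22.8% of all genes.

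The family's summed level followed the same pattern in THP-1. It was 4620 ± 72.1 CPM in vehicle, 4807 ± 162 with LAA, 4444 ± 350 with olaparib and 5084 ± 231 with the combination (SD, n = 3). All 3 combination libraries, at 5020, 4891 and 5340, lay above the vehicle libraries, at 4536.3, 4660.9 and 4661.4, and the low olaparib library was replicate 2, at 4042. In the libraries labelled MOLM-13 it was 4714 ± 334, 5026 ± 535, 4415 ± 55.7 and 4541 ± 194 CPM in the same order, and the combination and vehicle libraries overlapped. The members' share of all counts there was 0.468% ± 0.0224 in vehicle and 0.468% ± 0.0169 with the combination (SD, n = 3). The lower summed CPM with the combination was thus not seen in the share of counts.

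Genes for the cytosolic ribosome fell in larger numbers. With the combination 1 of 76 rose and 59 fell in THP-1, with a median of -0.32, and 0 rose and 64 fell in the libraries labelled MOLM-13, with a median of -0.48. Their share of counts went from 9.06% ± 0.366 to 7.42% ± 0.301 in THP-1 and from 9.75% ± 0.786 to 7.27% ± 0.518 in the other line (SD, n = 3). The share of mitochondrially encoded transcripts went from 7.09% ± 0.35 to 8.38% ± 0.941 and from 6.71% ± 0.0327 to 9.08% ± 0.302. The part of these shares in the members' values was not tested.

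**Figure D5:**
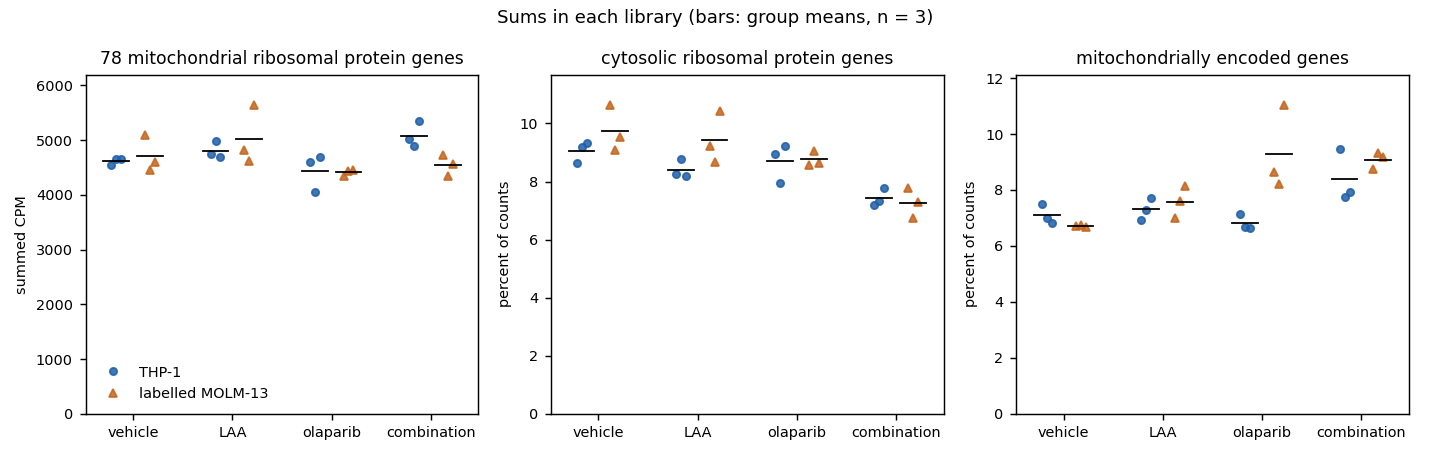
Summed CPM of the 78 members, and the percent of counts from cytosolic ribosomal protein genes and from mitochondrially encoded genes, in each library, with bars for group means (n = 3). With the combination the members' sum in THP-1 reaches 4891 to 5340 CPM, while the cytosolic share is lowest with the combination in both lines.

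Other parts of the mitochondrial translation machinery were read in the same fits, where 13.5% of all genes rose and 13.5% fell with the combination in THP-1. The shares called in several of these lists lie near that background, and nothing particular to a list is read from them. Of 5 mitoribosome proteins with other symbols, 3 rose with the combination in THP-1, DAP3 by 0.26, GADD45GIP1 by 0.25 and PTCD3 by 0.20. Of 28 assembly factors 6 rose, among them MTERF3, a factor of large subunit assembly, by 0.39, and 1 fell, the GTPase NOA1, by 0.29 on the log2 scale. Of 15 translation factors 3 rose, the RNA-binding SLIRP by 0.58, the translational activator TACO1 by 0.34 and the elongation factor TUFM by 0.24. Of 20 genes listed with the aminoacyl-tRNA synthetases 1 rose and 4 fell. The list also held QRSL1, GATB and GATC, subunits of the amidotransferase that makes glutaminyl-tRNA, which are not synthetases. QRSL1 was the gene that rose, by 0.43, and among those that fell VARS2 did so most, at -0.58.

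Of 9 genes for upkeep and transcription of mitochondrial DNA 2 rose, the RNA polymerase POLRMT and the helicase TWNK, and 1 fell, POLG2. Of 11 chaperones and proteases 2 rose and 2 fell. HSPA9, the matrix Hsp70, rose from 421 ± 6.08 to 731 ± 12.5 CPM (SD, n = 3) and the protease LONP1 by 0.54, and CLPX and the co-chaperonin HSPE1 fell. Of 12 regulators 4 rose and 2 fell. The stress-response factors DDIT3, ATF5 and ATF4 rose by 2.10, 1.22 and 0.52, while MYC and GABPA fell, with differences of -0.52 and -0.37. DDIT3 went from 10.2 ± 2.23 to 43.9 ± 2.53 CPM (SD, n = 3). Of 13 mitochondrially encoded proteins MT-CO1, MT-ND4, MT-CO2 and MT-CYB rose and MT-ND3 fell.

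With the combination in the libraries labelled MOLM-13, where 4.85% of all genes rose and 7.35% fell, CHCHD1, a small subunit protein, and the assembly factors GTPBP6 and YBEY fell, at -0.56, -0.31 and -0.76. The elongation factor GFM1 and the synthetase LARS2 rose by 0.26 and 0.37. HSPA9 rose by 0.50, LONP1 by 0.28, DDIT3 by 1.27 and ATF5 by 0.94, MYC fell at -0.29, and 7 of 13 mitochondrially encoded genes rose, most in MT-ND4L, at 0.88. With the single compounds 1 gene of these mitochondrial lists fell in THP-1, MT-ND3 with olaparib at -0.40, and 1 rose in the other line, ATF5 with LAA at 0.38. The difference between lines in the combination effect, called in 2.13% of all genes, passed the test for YBEY at 0.88, DDIT3 at 0.83, ATF4 at 0.52, HSPA9 at 0.30 and MT-ATP6 at -0.49. The interaction in THP-1, called in 7.57% of all genes, passed it for DAP3 at 0.29, SLIRP at 0.55, HSPA9 at 0.61, ATF5 at 1.03 and DDIT3 at 1.51, among others. The number and direction of those others are not given here, and nothing particular to a list is read from the genes named.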

How the data were processed

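Whole-number counts per gene and FPKM values were deposited by the authors for 24 libraries. Per the submitters' processing notes HISAT2, SAMtools and DESeq2 were used with hg38. Tool versions, the counting program, its strand setting and gene annotation were not given in the sources used here. FPKM, deposited by the authors, served for levels between genes and for limma on log2(FPKM + 1). Counts were tested in R 4.3.3 with edgeR 4.0.16 (TMM, filterByExpr, quasi-likelihood F test), on the 12 libraries of a line for treatments and on all 24 for line differences and the vehicle comparison, 12 comparisons in all, with Benjamini-Hochberg adjustment over all genes tested and a threshold of 0.05. CPM used TMM over the 24 libraries. Alternatives were DESeq2 1.42.0, its size factors, total-count scaling, no filter, a replicate block, limma 3.58.1, a fit of all 24 libraries and leaving out each library.

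Members and lists were chosen with earlier results of these data known. Genes named are up to 6 called members per direction in each treatment comparison, up to 4 per direction in an interaction, line difference or the vehicle comparison, members with a fixed role, those failing the filter, and the 3 highest and 3 lowest by FPKM. Others were named after their values were seen. Coordinates of promoters are those of RefSeq on GRCh38.p14. In simulated THP-1 counts, where 15960 of 16331 genes passed the filter, edgeR called 24%, 52%, 70% and 84% of genes changed 1.25-, 1.5-, 2- and 4-fold (50 each), with 7 false calls.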

Additional observations from a re-analysis of the deposited data

How the results depend on the processing

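Without the filter on low counts the members called numbered 2 for LAA and 11 for the interaction in THP-1, 3, 5 and 11 for LAA, olaparib and the combination in the libraries labelled MOLM-13, and 1 and 3 for the line differences in LAA and in the combination. Counts for LAA in the libraries labelled MOLM-13 were 3 by DESeq2, 2 with total-count scaling, 2 with the replicate block, 0 by limma on FPKM and 3 in the fit of all 24 libraries. For the combination in those libraries they were 8 by DESeq2 and 9 in the fit of all 24, and for their interaction 2 by DESeq2, 1 with total-count scaling and 1 in the fit of all 24. For the line difference in the combination they were 5 by DESeq2, 1 with total-count scaling and 1 by limma. Leaving out 1 library at a time gave 16 to 23 members for the combination and 3 to 12 for the interaction in THP-1. For the libraries labelled MOLM-13 it gave 0 to 4 for LAA, 1 to 5 for the combination and 0 to 1 for the interaction, and it gave 0 to 1 for the line difference in the combination and 0 to 2 for the vehicle comparison. The median of the interaction in the libraries labelled MOLM-13 turned from -0.05 to 0.039 with total-count scaling, which moved the share of higher calls there from 35.0% to 51.5%, and for olaparib in THP-1 from 68.2% to 80%. The cause of these changes was not tested. With total-count scaling 272 of all genes tested were called for LAA in the libraries labelled MOLM-13, against 303 in the main fit. For their interaction it was 328 against 329, and for the line difference in the combination 312 against 364. The share of all genes called without the filter is not given here, and these member counts are not read as results about the family.

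Same-numbered libraries of a line had deviations that correlated at r = -0.09 to 0.12, so the numbers were not taken as pairs. With the replicate block 23 members were called for the combination and 7 for the interaction in THP-1, and 0 in the vehicle comparison, where 2 had been called. Low counts limit MRPS24 and MRPL53. In simulated counts changed genes of every fold size tried were missed in part, with 52% of 1.5-fold and 84% of 4-fold changes called. Only 200 genes, drawn from all levels, were changed there, so these shares are not detection rates for the members.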
